A study of Mus musculus with 15 samples.

Results

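Glycolysis and the response to low oxygen were followed here through 34 mouse genes, taken as the rows of the count table whose identifiers carry the listed symbols in the GENCODE M21 annotation. The table held 46078 genes, and all 34 were found and passed the filter on low counts, which left 15152 genes for testing. The genes comprise 2 transporters (Slc2a1 and Slc16a3), 17 glycolytic enzymes and their isoenzymes, 3 regulators of glycolytic flux (Pdk1, Pfkfb3 and Pfkfb4), 2 prolyl hydroxylases of the hypoxia-inducible factors (Egln1 and Egln3) and 10 other hypoxia-responsive genes.

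RNA was sequenced from B16-F10, an established pigmented mouse melanoma line, in 5 groups of 3 libraries each. In one arm the cells were treated with GSK126 at 2 µM, a compound that blocks the catalytic activity of EZH2, with DZNep at 2 µM, which blocks S-adenosylhomocysteine hydrolase and so methylation more widely, or with the vehicle DMSO. In the other arm they were transfected with an siRNA against Ezh2 (siEzh2) or with a scrambled siRNA (scr). All groups are 1 tumour line in culture, and the sources used here give no length of treatment, oxygen tension, medium or siRNA sequence. Whether the libraries of a group came from separate cultures is not stated, so that p-values reflect the spread among these libraries alone, which may be technical.

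Glycolysis splits glucose into pyruvate in the cytosol, and lactate dehydrogenase turns pyruvate into lactate, which leaves the cell through monocarboxylate transporters. When oxygen is low, the HIF prolyl hydroxylases no longer mark HIF-1α and HIF-2α for destruction. These factors then pair with ARNT and bind short sequences beside many glycolytic genes, and also beside the hydroxylase genes Egln1 and Egln3. Tumour cells, melanoma cells included, often run glycolysis at a high rate with oxygen present. EZH2 is the catalytic subunit of Polycomb repressive complex 2, which methylates histone H3 at lysine 27, a mark of silenced genes.

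The libraries held between 33299524 and 64545747 counts. Ezh2 transcripts stood at 37.6, 39.9 and 41.3 CPM (read counts scaled to a common library size with TMM) in siEzh2 cells, against 215, 227 and 215 CPM in scr cells. With DZNep they averaged 155 ± 5.06 CPM and with GSK126 214 ± 6.81 CPM, against 207 ± 2.66 CPM with DMSO (SD, n = 3 each). The 7 melanocyte markers were expressed in every group, with Tyrp1 and Dct at no fewer than 591064 counts each over the 3 libraries of any group. DZNep libraries stood apart from the other 12 along the first principal component, which held 60.1% of the variance.

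Set per kilobase of merged exons, the 34 genes spanned 4 orders of magnitude in DMSO cells. Aldoa, the main aldolase, was highest at 947 ± 51.6 CPM per kilobase, followed by the pyruvate kinase gene Pkm at 536 ± 50.9, Ldha at 208 ± 24.8, Eno1 at 171 ± 7.56 and Tpi1 at 165 ± 31.1 CPM per kilobase (SD, n = 3). The Tpi1 libraries overlapped those of Ldha and of Eno1, whereas every Ldha library lay above every Eno1 library. Aldoa and Pkm alone made up 27.9% and 27.1% of the summed CPM of the 34 genes. At the low end were the carbonic anhydrase gene Car9, which encodes an acid-extruding surface enzyme, at 1.44 ± 0.21, Pfkfb4 at 0.61 ± 0.05 and Car12 at 0.08 ± 0.01 CPM per kilobase.

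Several of these levels are uncertain because glycolytic genes have processed copies in the mouse genome. Of all 50-base words in its transcripts, Pgk1 shared 53.9% with transcripts of other genes, Bnip3 47.2%, Pgam1 36.2%, Eno1 26%, Pkm 25.8%, Gapdh 25.1%, Higd1a 24.4% and Ldhb 21%. Gapdh, usually among the most abundant glycolytic transcripts, stood at only 14 CPM per kilobase with DMSO, and its words recurred in transcripts of 223 other genes. Pfkm, Pfkp, Hk1, Ndrg1, Car9, Ankrd37 and Bnip3 also overlap the exons of a neighbouring or antisense gene, and the sources used here do not say whether the counting used strand.

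Summed over the 34 genes, the level was 10443 ± 181 CPM with GSK126 and 10918 ± 576 CPM with DZNep, against 9872 ± 746 CPM with DMSO (SD, n = 3 each). The GSK126 libraries lay between 10330 and 10652 CPM and the DZNep libraries between 10305 and 11448 CPM, and the DMSO libraries stood at 9591, 9308 and 10717 CPM. The overlap rested on DMSO replicate 3, and every GSK126 and DZNep library lay above the other two DMSO libraries. In siEzh2 cells the sum was 12302 ± 264 CPM, against 10400 ± 169 CPM in scr cells, and each of the 3 siEzh2 libraries lay above each scr library. Since these are bulk RNA libraries, a difference in level cannot be told apart from a difference in the share of cells that express the gene.

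With GSK126, 12 of the 34 genes rose and 2 fell relative to DMSO at an adjusted p under 0.05 in edgeR's quasi-likelihood test, while 12.7% of all genes tested were called. Over all genes 7.15% rose and 5.54% fell. The genes that rose were the hexokinases Hk1 and Hk2, the phosphofructokinase Pfkp, the lactate exporter Slc16a3, Pdk1, Pfkfb3, both hydroxylases, Bnip3, Vegfa, P4ha2 and Car12; Ndrg1 and Aldoc fell. The median log2 fold change was 0.15 over the 34 genes and −0.01 over all genes.

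**Figure D1:**
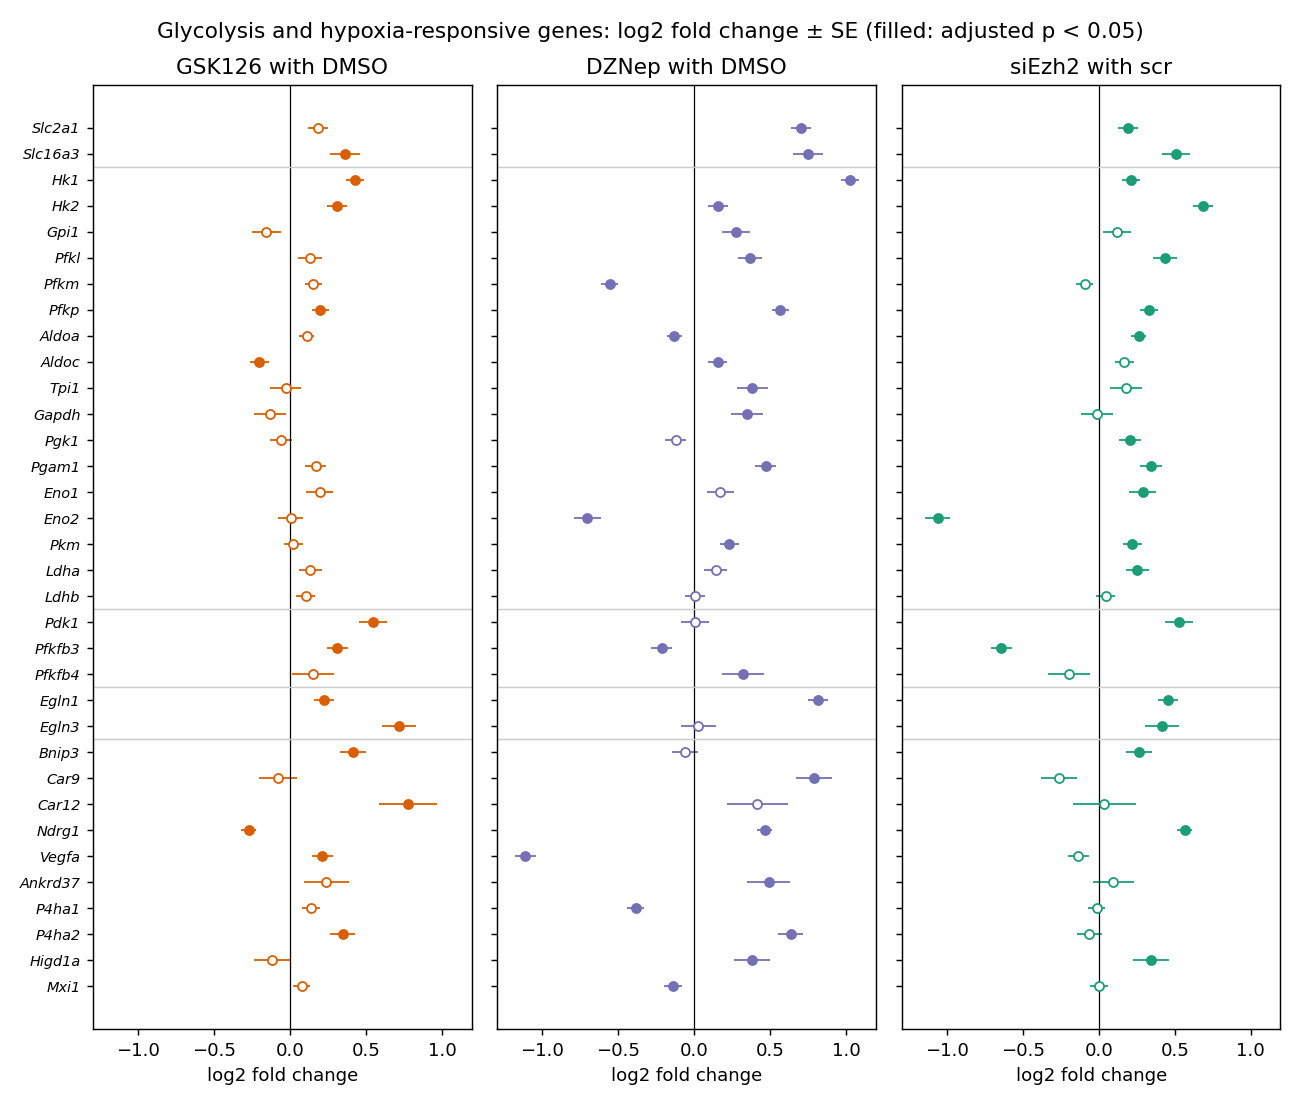
Log2 fold change ± SE of each of the 34 genes in the 3 main comparisons, in panels from left to right for GSK126 with DMSO, DZNep with DMSO and siEzh2 with scr (3 libraries a group), with filled points where the adjusted p was under 0.05. With GSK126, 12 genes rose and 2 fell. With DZNep, 19 rose and 7 fell. With siEzh2, 18 rose and 2 fell.

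Entry of glucose into the pathway was marked by the hexokinases, which phosphorylate glucose. Hk1 stood at 95.2, 96.4 and 92.2 CPM with GSK126, against 66.6, 69.2 and 74.9 CPM with DMSO, a log2 fold change of 0.43 ± 0.06 (adjusted p = 3.7e-05). Every GSK126 library lay above every DMSO library. Hk2, the isoform induced in many tumours, stood at 158, 145 and 150 CPM with GSK126, against 117, 116 and 132 CPM with DMSO (0.31 ± 0.07, adjusted p = 0.00379), again without overlap. Of the 17 enzymes, 3 rose and 1 fell. The fall was in Aldoc, the aldolase best known from brain, at 49.5, 49.7 and 51.6 CPM with GSK126, against 56.5, 54.1 and 62.4 CPM with DMSO (−0.20, adjusted p = 0.0408). Aldoa, Pkm and Ldha, which are abundant, did not pass the test, with differences of 0.11, 0.02 and 0.13. Without DMSO replicate 3 Ldha was called, at 0.24 (adjusted p = 0.0267).

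Pdk1, Egln3 and Bnip3, which act on pyruvate, oxygen sensing and mitochondria, rose as well. Higd1a, whose protein also acts in mitochondria, was not called, at 10.7 CPM per kilobase with GSK126, against 11.6 with DMSO. Pdk1, whose kinase inhibits pyruvate dehydrogenase and so keeps pyruvate from the mitochondria, stood at 98.9, 94.2 and 98.6 CPM with GSK126, against 71.7, 62.4 and 65.6 CPM with DMSO (0.55 ± 0.09, adjusted p = 0.000561). Egln3, a hydroxylase gene that is itself induced by HIF, had 7.8, 8.18 and 8.66 CPM with GSK126, against 4.4, 4.57 and 5.85 CPM with DMSO (0.72 ± 0.11, adjusted p = 0.000172). Bnip3, which encodes a mitophagy receptor of the outer mitochondrial membrane, stood at 85.8, 80.9 and 90.2 CPM with GSK126, against 62.5, 63.2 and 66.8 CPM with DMSO (0.42 ± 0.09, adjusted p = 0.00339). For Pdk1, Egln3 and Bnip3 the groups did not overlap, which was a condition for choosing them here.

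Pfkfb3, which makes fructose 2,6-bisphosphate, an activator of phosphofructokinase, stood at 43, 42.3 and 43.3 CPM with GSK126, against 39, 32.4 and 32.2 CPM with DMSO (0.31 ± 0.07, adjusted p = 0.00365). Egln1, the main HIF prolyl hydroxylase of most cells, rose less, with 145, 152 and 158 CPM with GSK126, against 123, 128 and 138 CPM with DMSO (0.23, adjusted p = 0.031). Slc16a3, the monocarboxylate transporter MCT4 that exports lactate, had 24.2, 22.8 and 26.9 CPM with GSK126, against 18.7, 16.2 and 22.3 CPM with DMSO (0.36, adjusted p = 0.0191). Each of these genes was higher in every GSK126 library than in any DMSO library, by a narrow margin for Slc16a3. Vegfa, the angiogenic growth factor, showed 108, 104 and 108 CPM with GSK126, against 92.3, 86.2 and 96.8 CPM with DMSO (0.21, adjusted p = 0.0464).

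Ndrg1, a stress-induced gene that hypoxia raises in many cells, went the other way. It stood at 197, 191 and 190 CPM with GSK126, against 224, 227 and 246 CPM with DMSO (−0.27 ± 0.05, adjusted p = 0.000939), and the groups did not overlap. Car12 had the largest fold change of the set, 0.78 ± 0.19 (adjusted p = 0.0104), at a level of 1.03 ± 0.06 CPM with GSK126, against 0.60 ± 0.09 CPM with DMSO (SD, n = 3 each). P4ha2, a collagen prolyl hydroxylase subunit, rose by 0.35 ± 0.08 (adjusted p = 0.00831).

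Of the 14 calls with GSK126, 9 held whichever library was left out. Aldoc, Egln1, Pfkp, Slc16a3 and Vegfa each lost theirs in at least 3 such fits, with adjusted p up to 0.195, 0.134, 0.0967, 0.102 and 0.159, and 9 genes in all were called without GSK126 replicate 3. Calls were also gained: without DMSO replicate 3, Slc2a1 (0.27, adjusted p = 0.00755), Pfkm (0.21, adjusted p = 0.0167), Ldha, Ankrd37 (0.50, adjusted p = 0.0221) and Ldhb (0.19, adjusted p = 0.0448) were called as higher, which made 18 genes in all. Of the 7 melanocyte markers, 3 fell in the same comparison, where 5.54% of all genes fell, and none rose. The part of these markers in the GSK126 result was not tested.

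Short matches to the core of the HIF binding sequence were looked up in the promoters, which are shown for Pdk1, Egln3, Bnip3, Hk1 and Vegfa. Pdk1, Egln3 and Bnip3 rose with GSK126 and with siEzh2 and were not called with DZNep. Hk1 and Vegfa were called with DZNep in opposite directions. The printed windows were chosen for holding such matches or for lacking them, so a contrast among them is not a result. The windows run from 250 bases before to 50 after the most upstream listed start, are from RefSeq on GRCm38.p6, and are printed 5′ to 3′ on the strand of the gene with ACGTG and GCGTG, or their reverse complements CACGT and CACGC, in capitals. They lie at chr2:71872974-71873273 (plus strand) for Pdk1, chr12:54203825-54204124 (minus) for Egln3, chr7:138909457-138909756 (minus) for Bnip3, chr10:62379859-62380158 (minus) for Hk1 and chr17:46032328-46032627 (minus) for Vegfa. The count table lists these genes as ENSMUSG00000006494, ENSMUSG00000035105, ENSMUSG00000078566, ENSMUSG00000037012 and ENSMUSG00000023951.
Pdk1: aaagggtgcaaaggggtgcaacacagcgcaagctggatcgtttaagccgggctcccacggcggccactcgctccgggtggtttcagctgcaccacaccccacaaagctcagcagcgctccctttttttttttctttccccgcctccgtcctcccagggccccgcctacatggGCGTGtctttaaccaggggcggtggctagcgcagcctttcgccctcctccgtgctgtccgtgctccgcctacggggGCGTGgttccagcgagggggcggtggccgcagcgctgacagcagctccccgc
Egln3: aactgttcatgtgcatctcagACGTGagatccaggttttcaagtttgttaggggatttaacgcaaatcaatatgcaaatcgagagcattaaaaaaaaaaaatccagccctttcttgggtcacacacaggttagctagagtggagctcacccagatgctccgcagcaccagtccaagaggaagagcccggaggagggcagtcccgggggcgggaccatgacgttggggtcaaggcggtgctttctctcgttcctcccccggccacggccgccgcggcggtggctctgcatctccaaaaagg
Bnip3: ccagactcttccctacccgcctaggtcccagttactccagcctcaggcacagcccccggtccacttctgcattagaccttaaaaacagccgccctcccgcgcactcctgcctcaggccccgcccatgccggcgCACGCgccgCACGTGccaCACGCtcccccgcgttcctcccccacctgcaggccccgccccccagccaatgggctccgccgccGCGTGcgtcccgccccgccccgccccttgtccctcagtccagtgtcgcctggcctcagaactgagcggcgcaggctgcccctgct
Hk1: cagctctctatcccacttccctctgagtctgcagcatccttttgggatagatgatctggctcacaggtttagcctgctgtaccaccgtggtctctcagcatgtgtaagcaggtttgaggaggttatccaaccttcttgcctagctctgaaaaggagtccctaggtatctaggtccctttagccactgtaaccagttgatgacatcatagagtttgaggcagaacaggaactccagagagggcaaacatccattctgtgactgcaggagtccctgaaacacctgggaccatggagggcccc
Vegfa: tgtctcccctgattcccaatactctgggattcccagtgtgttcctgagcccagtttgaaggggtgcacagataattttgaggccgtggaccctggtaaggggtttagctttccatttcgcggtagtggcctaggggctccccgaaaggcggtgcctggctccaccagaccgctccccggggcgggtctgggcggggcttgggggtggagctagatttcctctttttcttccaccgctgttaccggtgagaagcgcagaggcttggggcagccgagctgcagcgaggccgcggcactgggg

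The Pdk1 window held GCGTG 2 times, the Egln3 window held ACGTG 1 time, and the windows of Hk1 and Vegfa held neither. In Bnip3 the palindrome CACGTG, which counts as ACGTG on both strands, stood among 3 matches to GCGTG. Over the 33 genes with a window (Ndrg1 had none), 18 or 54.5% held ACGTG, against 19.6% of all 27025 RefSeq promoters, and 17 or 51.5% held GCGTG, against 32.5% of all. Either motif was present in 72.7% of the 33 and in 43.8% of all. The 33 genes had been listed for glycolysis and hypoxia, and the promoters of all genes were not matched to theirs in expression or base composition. These shares are therefore a description and not a test. A match describes the letters in the window and says nothing about binding, and the absence of one covers only these 300 bases.

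With DZNep, 19 of the 34 genes rose and 7 fell relative to DMSO, where 62.3% of all genes tested were called (31.2% higher and 31% lower). The median log2 fold change was 0.25 over the 34 genes and 0.00 over all genes. Both transporters and 10 of the 17 enzymes rose, Hk1 most, while the enzymes Pfkm, Eno2 and Aldoa fell. The largest change of all was a fall in Vegfa. Pdk1, Egln3 and Bnip3, which rose with GSK126, were not called with DZNep.

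Hk1 stood at 149, 149 and 130 CPM with DZNep, against 66.6, 69.2 and 74.9 CPM with DMSO, a log2 fold change of 1.02 ± 0.06 (adjusted p = 7.13e-12). Hk2 had 146, 139 and 124 CPM with DZNep, against 117, 116 and 132 CPM with DMSO (0.16, adjusted p = 0.0465), and here the groups overlapped. Hk1 therefore made up 42.4% ± 0.597 of the hexokinase level per kilobase (Hk1 and Hk2 together) with DZNep, against 28.7% ± 0.55 with DMSO (SD, n = 3 each).

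A like shift was measured among the phosphofructokinases, which catalyse the committed step of glycolysis. Pfkm, the muscle form, stood at 24.8, 27.1 and 26 CPM with DZNep, against 37.4, 36.1 and 41.1 CPM with DMSO (−0.56 ± 0.06, adjusted p = 4.59e-08). Pfkp, the platelet form, rose by 0.57 ± 0.06 (adjusted p = 4.05e-08) and the liver form Pfkl by 0.37 ± 0.08 (adjusted p = 0.000503). Per kilobase, Pfkm thus fell to 17.9% ± 1.72 of the summed phosphofructokinases with DZNep, against 30.1% ± 0.533 with DMSO (SD, n = 3 each), and no library of one group reached the range of the other.

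Eno2, the neuronal enolase, stood at 5.7, 5.39 and 5.57 CPM with DZNep, against 9.35, 8.62 and 9.13 CPM with DMSO (−0.70 ± 0.09, adjusted p = 9.5e-07). The ubiquitous enolase Eno1 had 1158, 1087 and 869 CPM with DZNep, against 906, 891 and 968 CPM with DMSO, and did not pass the test (0.17, adjusted p = 0.101). Without DZNep replicate 3, its lowest library, it was called (0.28, adjusted p = 0.00283). Aldoa had 2465, 2601 and 2485 CPM with DZNep, against 2865, 2586 and 2822 CPM with DMSO (−0.13, adjusted p = 0.0287), with overlapping groups, while Aldoc had 69.2, 64.3 and 59.5 CPM with DZNep, against 56.5, 54.1 and 62.4 CPM (0.16, adjusted p = 0.0365). Pkm rose by 0.23, Pgam1 by 0.47, Tpi1 by 0.38, Gpi1 by 0.27 and Gapdh by 0.35.

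Transcripts of the glucose importer and of the lactate exporter both rose with DZNep. Slc2a1, the glucose transporter GLUT1, stood at 79.6 ± 4.01 CPM with DZNep, against 48.9 ± 4.87 CPM with DMSO (SD, n = 3 each; 0.70 ± 0.07, adjusted p = 1.79e-08). Slc16a3 had 34.3, 33.8 and 28.3 CPM with DZNep, against 18.7, 16.2 and 22.3 CPM with DMSO (0.75 ± 0.10, adjusted p = 2.3e-06). Neither gene overlapped between the groups.

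The hydroxylase genes parted. Egln1 stood at 248, 237 and 199 CPM with DZNep, against 123, 128 and 138 CPM with DMSO (0.81 ± 0.07, adjusted p = 2.28e-09), whereas Egln3 had 5.02, 5.55 and 4.68 CPM with DZNep, against 4.4, 4.57 and 5.85 CPM with DMSO (0.03, adjusted p = 0.856). Pdk1 showed 74.1, 72.8 and 53.7 CPM with DZNep, against 71.7, 62.4 and 65.6 CPM with DMSO (0.00, adjusted p = 0.968). Bnip3 showed 66.3, 68.8 and 49.9 CPM with DZNep, against 62.5, 63.2 and 66.8 CPM with DMSO (−0.06, adjusted p = 0.567). In Egln1, Pdk1 and Bnip3, DZNep replicate 3 was the lowest of its group.

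**Figure D2:**
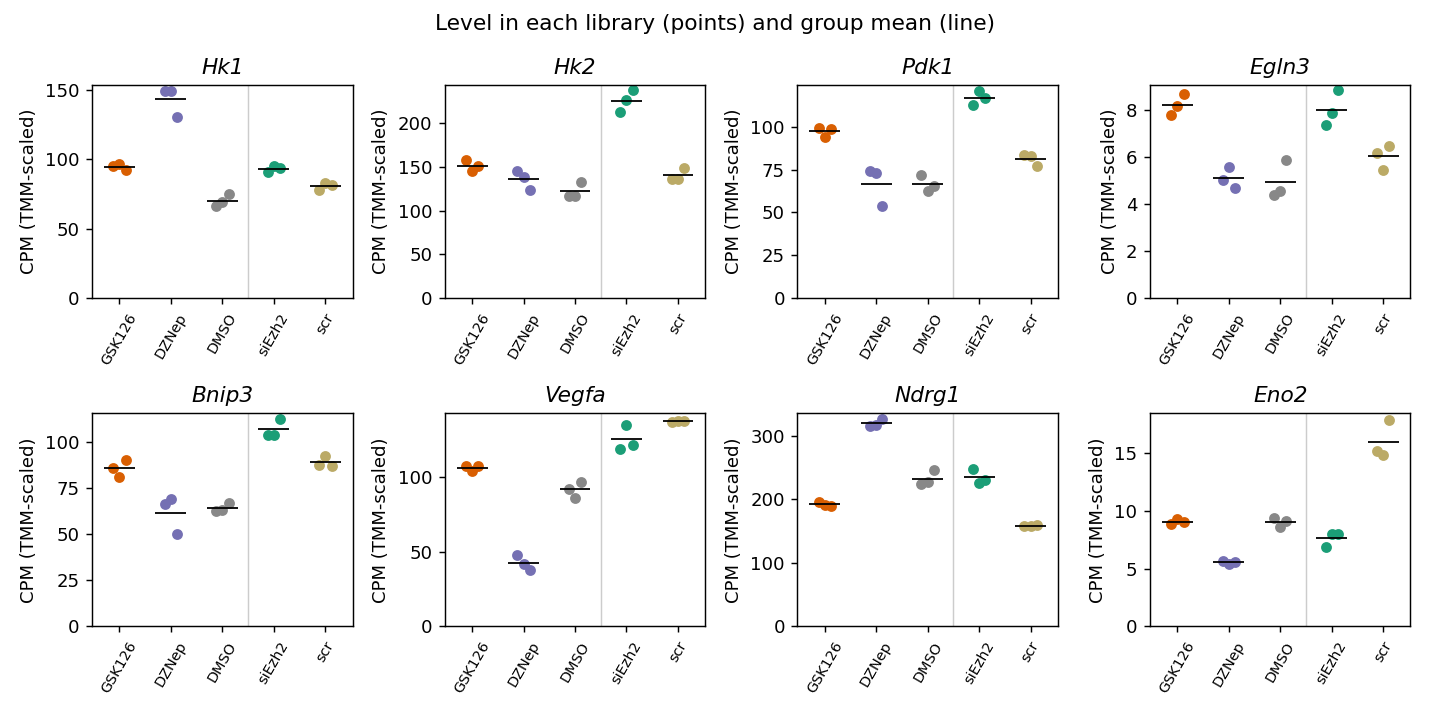
Level of 8 of the genes in each library, in CPM on TMM-scaled library sizes on linear axes from 0, with points for libraries and a line for the group mean (GSK126, DZNep and DMSO left of the grey line, siEzh2 and scr right of it). Hk1 was highest with DZNep and Vegfa lowest, while Pdk1 and Bnip3 with DZNep lay near their DMSO levels.

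Vegfa stood at 48.1, 41.7 and 37.9 CPM with DZNep, against 92.3, 86.2 and 96.8 CPM with DMSO (−1.11 ± 0.07, adjusted p = 4.97e-11), with no overlap. P4ha1, the catalytic subunit of collagen prolyl 4-hydroxylase, had 65, 63.2 and 54.5 CPM with DZNep, against 80.9, 75.2 and 82.5 CPM with DMSO (−0.39 ± 0.06, adjusted p = 7.98e-06). Its paralog P4ha2 rose by 0.63 ± 0.08 (adjusted p = 1.28e-06), to 21.5 ± 1.62 CPM with DZNep, against 13.8 ± 0.892 CPM with DMSO (SD, n = 3 each). These subunit genes thus moved in opposite directions under the same treatment.

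Car9 had 6.37, 5.36 and 5.66 CPM with DZNep, against 2.77, 3.52 and 3.67 CPM with DMSO (0.79 ± 0.12, adjusted p = 8e-06). Ndrg1 stood at 316, 317 and 327 CPM with DZNep, against 224, 227 and 246 CPM with DMSO (0.46 ± 0.05, adjusted p = 1.07e-07), the opposite of its direction with GSK126. Pfkfb3 was lower at 31.7, 29.7 and 27.8 CPM with DZNep, against 39, 32.4 and 32.2 CPM with DMSO (−0.22, adjusted p = 0.00971). Ankrd37 and Higd1a rose by 0.49 and 0.38, and Mxi1, a repressor of MYC activity, fell by 0.14.

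Of the 26 calls with DZNep, 17 held whichever library was left out. Hk2, Aldoa, Aldoc, Mxi1 and Pfkfb4 each lost theirs in 4 such fits, with adjusted p up to 0.218, 0.112, 0.201, 0.237 and 0.258. Gpi1 lost its call in 3 fits (adjusted p up to 0.0933), Pfkfb3 without DMSO replicate 1 or DZNep replicate 3 (up to 0.0926), Higd1a without DMSO replicate 1 or DZNep replicate 2 (up to 0.0689) and Gapdh without DZNep replicate 2 (0.0554). Beside Eno1, Ldha gained a call, without DMSO replicate 3 (0.24, adjusted p = 0.00299). Genes on the fibroblast marker list rose in the same libraries: of 8 markers 5 were tested, 4 rose with DZNep and none fell, and their summed level was 398 to 416 CPM with DZNep, against 190 to 229 CPM with DMSO. Dcn had 2 counts and Col3a1 0 in the 3 DZNep libraries together, and Lum had 10. Of the 9 blood and endothelial markers 2 were tested and both rose, Fcer1g by 1.04 and Cd68 by 0.67, and the list summed to 7.58 to 8.60 CPM with DZNep, against 4.24 to 4.81 CPM with DMSO, while Adgre1, Cd3e, Cdh5 and Hbb-bs had 0 counts in all 15 libraries. Over all genes tested, 62.3% were called with DZNep, 31.2% as higher, and these marker lists are short. The part of other cells in these results was not tested.

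With siEzh2, 18 of the 34 genes rose and 2 fell relative to scr, where 26.1% of all genes tested were called (13.2% higher and 12.9% lower). The median log2 fold change was 0.20 over the 34 genes and −0.01 over all genes. Of the 17 enzymes 10 rose, and these included the abundant Aldoa, Pkm, Ldha and Eno1; Eno2 was the 1 enzyme that fell. Both transporters and both hydroxylases rose, and Pfkfb3 fell.

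Hk2 rose most, with 213, 227 and 238 CPM in siEzh2 cells, against 137, 136 and 149 CPM in scr cells (0.69 ± 0.07, adjusted p = 1.79e-07). Hk1 rose less, with 91.1, 94.9 and 93.8 CPM in siEzh2 cells, against 78, 82.6 and 81.2 CPM in scr cells (0.21 ± 0.06, adjusted p = 0.00928). Per kilobase, Hk1 was 22.4% ± 0.723 of the hexokinases in siEzh2 cells, against 28.7% ± 1.14 in scr cells (SD, n = 3 each), so that the balance moved toward Hk2, where with DZNep it had moved toward Hk1.

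Aldoa stood at 3577, 3329 and 3448 CPM in siEzh2 cells, against 2876, 2844 and 2907 CPM in scr cells (0.26 ± 0.05, adjusted p = 0.000549), and no library overlapped. Aldoc had 67.8, 63.5 and 67.3 CPM in siEzh2 cells, against 58.4, 56.1 and 62.3 CPM in scr cells (0.17, adjusted p = 0.0527). Further down the pathway Pgam1 rose by 0.34, Eno1 by 0.29, Ldha by 0.25, Pkm by 0.22 and Pgk1 by 0.20. Gapdh did not pass the test (−0.01, adjusted p = 0.965), nor did Tpi1, Gpi1 and Ldhb.

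Pfkl and Pfkp rose by 0.43 ± 0.08 and 0.33 ± 0.06. Pfkm had 34.1, 34.7 and 34.9 CPM in siEzh2 cells, against 36.7, 36 and 37.8 CPM in scr cells, and was not called. Its share of the phosphofructokinases per kilobase was 20.7% ± 0.32 in siEzh2 cells, against 26.8% ± 0.874 in scr cells (SD, n = 3 each). Ldhb, the form of lactate dehydrogenase that prevails in heart, made up 16.4% ± 0.461 of Ldha and Ldhb per kilobase in siEzh2 cells, against 18.5% ± 1.45 in scr cells, where the ranges overlapped.

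**Figure D3:**
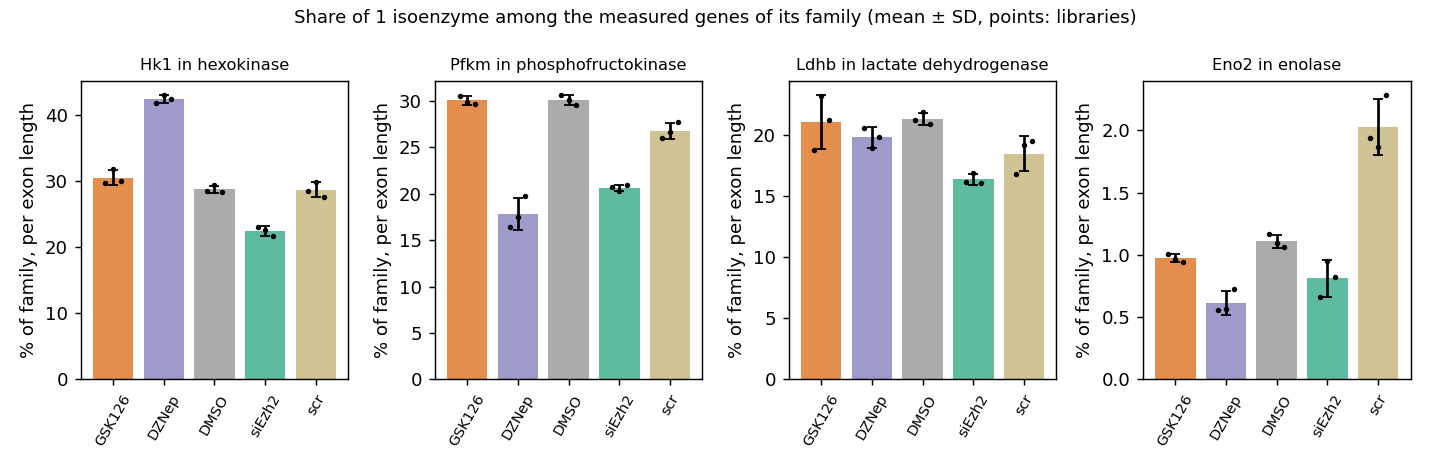
Share of 1 isoenzyme in its family, in percent of the family's summed CPM per kilobase of exon, with bars for the group mean, error bars for the SD and points for libraries (n = 3), for Hk1 among the hexokinases, Pfkm among the phosphofructokinases, Ldhb among the lactate dehydrogenases and Eno2 among the enolases. The Hk1 share was 42.4% with DZNep, against 28.7% with DMSO, and 22.4% with siEzh2, against 28.7% with scr, while the Pfkm share was 17.9% with DZNep, against 30.1% with DMSO, and 20.7% with siEzh2, against 26.8% with scr.

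Pdk1 stood at 113, 121 and 117 CPM in siEzh2 cells, against 83.4, 82.9 and 76.8 CPM in scr cells (0.53 ± 0.09, adjusted p = 0.000267). Slc16a3 had 36.5, 37.1 and 36.2 CPM in siEzh2 cells, against 25, 25.3 and 27.1 CPM in scr cells (0.51 ± 0.09, adjusted p = 0.00056). Egln1 had 180, 167 and 176 CPM in siEzh2 cells, against 128.75, 126.67 and 126.27 CPM in scr cells (0.45 ± 0.07, adjusted p = 3.57e-05). None of these genes overlapped between the groups, which for Pdk1 and Slc16a3 was a condition of the choice.

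Egln3 had 7.34, 7.85 and 8.84 CPM in siEzh2 cells, against 6.19, 5.47 and 6.46 CPM in scr cells (0.41 ± 0.11, adjusted p = 0.00791). Bnip3 had 104, 104 and 112 CPM in siEzh2 cells, against 87.5, 92.4 and 86.7 CPM in scr cells (0.26 ± 0.08, adjusted p = 0.0282). Both genes had also risen with GSK126, and here too every library of the knockdown lay above every control. Slc2a1 rose by 0.19 (adjusted p = 0.0354), and Higd1a, whose protein acts on the respiratory chain, by 0.34 (adjusted p = 0.0441).

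Ndrg1 stood at 249, 226 and 230 CPM in siEzh2 cells, against 158, 158 and 160 CPM in scr cells (0.57 ± 0.05, adjusted p = 5.04e-08). Eno2 stood at 6.85, 7.98 and 8.02 CPM in siEzh2 cells, against 15.2, 14.9 and 17.8 CPM in scr cells (−1.06 ± 0.08, adjusted p = 1.02e-08). Pfkfb3 had 33.1, 32.6 and 33.8 CPM in siEzh2 cells, against 50.5, 54.1 and 50.3 CPM in scr cells (−0.64 ± 0.07, adjusted p = 5.51e-07). These 3 genes were among those with the widest gap between siEzh2 and scr, and they were also among those in which scr itself stood away from DMSO, as the comparison of the controls shows. Vegfa had 119, 135 and 122 CPM in siEzh2 cells, against 137, 138 and 138 CPM in scr cells (−0.13, adjusted p = 0.16), and Car9 and P4ha1 were not called either, with 3.97, 4.54 and 4.43 CPM and 103, 106 and 101 CPM in siEzh2 cells, against 5.49, 4.94 and 5.12 CPM and 104, 106 and 103 CPM in scr cells.

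Of the 20 calls with siEzh2, 13 held whichever library was left out. Higd1a and Slc2a1 lost theirs in 5 such fits, with adjusted p up to 0.171 and 0.14, Eno1 and Pgk1 in 4, up to 0.104 and 0.147, Bnip3 and Ldha in 3, up to 0.0913 and 0.0684, and Egln3 without scr replicate 2 or siEzh2 replicate 3, up to 0.0535. Aldoc gained a call in 2 such fits, without scr replicate 3 (0.22, adjusted p = 0.0296) or siEzh2 replicate 2 (0.20, adjusted p = 0.0499). All 7 melanocyte markers also rose with siEzh2, with a sum of 25041 ± 841 CPM in siEzh2 cells, against 19354 ± 573 CPM in scr cells (SD, n = 3 each); in DMSO cells the sum was 25455 ± 173 CPM. Of the 8 fibroblast markers 5 were tested and 3 rose, with a sum of 195 to 201 CPM in siEzh2 cells, against 194 to 196 CPM in scr cells. Over all genes tested, 26.1% were called with siEzh2, 13.2% as higher. The part of these markers in the siEzh2 result was not tested.

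The 2 control groups differed in these genes. In scr cells 17 of the 34 rose and 1 fell relative to DMSO cells, where 25.9% of all genes tested were called (12.2% higher and 13.6% lower), and the median log2 fold change was 0.20 over the 34 genes. Over all genes, 47.3% of the calls were higher with TMM scaling and 58.5% with library totals, while the 34 genes gave 17 higher and 1 lower in both. Of the 10 other hypoxia-responsive genes 7 rose and Ndrg1 fell, and 6 of the 17 enzymes rose. Of the 7 melanocyte markers 1 rose and 5 fell in scr cells relative to DMSO cells, with a median of −0.37. What differs between the arms beside the siRNA (transfection, density, days in culture) cannot be told apart from it, since the sources used here do not describe it. The numbers in the library labels, 4 to 6 for scr and 13 to 15 for DMSO, also divide with these groups. What the numbers mean is not stated.

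Eno2 was 0.82 ± 0.08 higher on the log2 scale in scr cells than in DMSO cells (adjusted p = 2.89e-07), P4ha2 0.76 ± 0.08, Ankrd37 0.76 ± 0.14, Car9 0.63 ± 0.12, Vegfa 0.58 ± 0.07 and Pfkfb3 0.58 ± 0.07. Ndrg1 was lower by 0.55, with a log2 fold change of −0.55 ± 0.05 (adjusted p = 1.04e-07). Bnip3 rose by 0.47 ± 0.09 and Slc2a1 by 0.46 ± 0.07. Egln1 and Aldoa did not pass the test, with −0.03 and 0.06.

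Set against DMSO instead of scr, in a comparison added after the data were seen, siEzh2 cells had 24 of the 34 genes higher and none lower, where 14.2% of all genes tested were called (6.41% higher and 7.76% lower), with a median log2 fold change of 0.39. Hk2 stood at 0.89 ± 0.07, Pdk1 at 0.81 ± 0.09, Slc16a3 at 0.94 ± 0.10 and Egln3 at 0.69 ± 0.11 on this scale, so these genes were higher in siEzh2 cells than in either control. For Ndrg1 (0.02, adjusted p = 0.874), Pfkfb3 (−0.06, adjusted p = 0.625), Eno2 (−0.24, adjusted p = 0.0665) and Eno1 (0.23, adjusted p = 0.0966) the call was lost. Vegfa, Car9, P4ha1, P4ha2 and Gapdh had negative values against scr that were not called, and positive, called ones against DMSO, at 0.45, 0.37, 0.38, 0.70 and 0.38. Both comparisons use the same siEzh2 libraries.

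**Figure D4:**
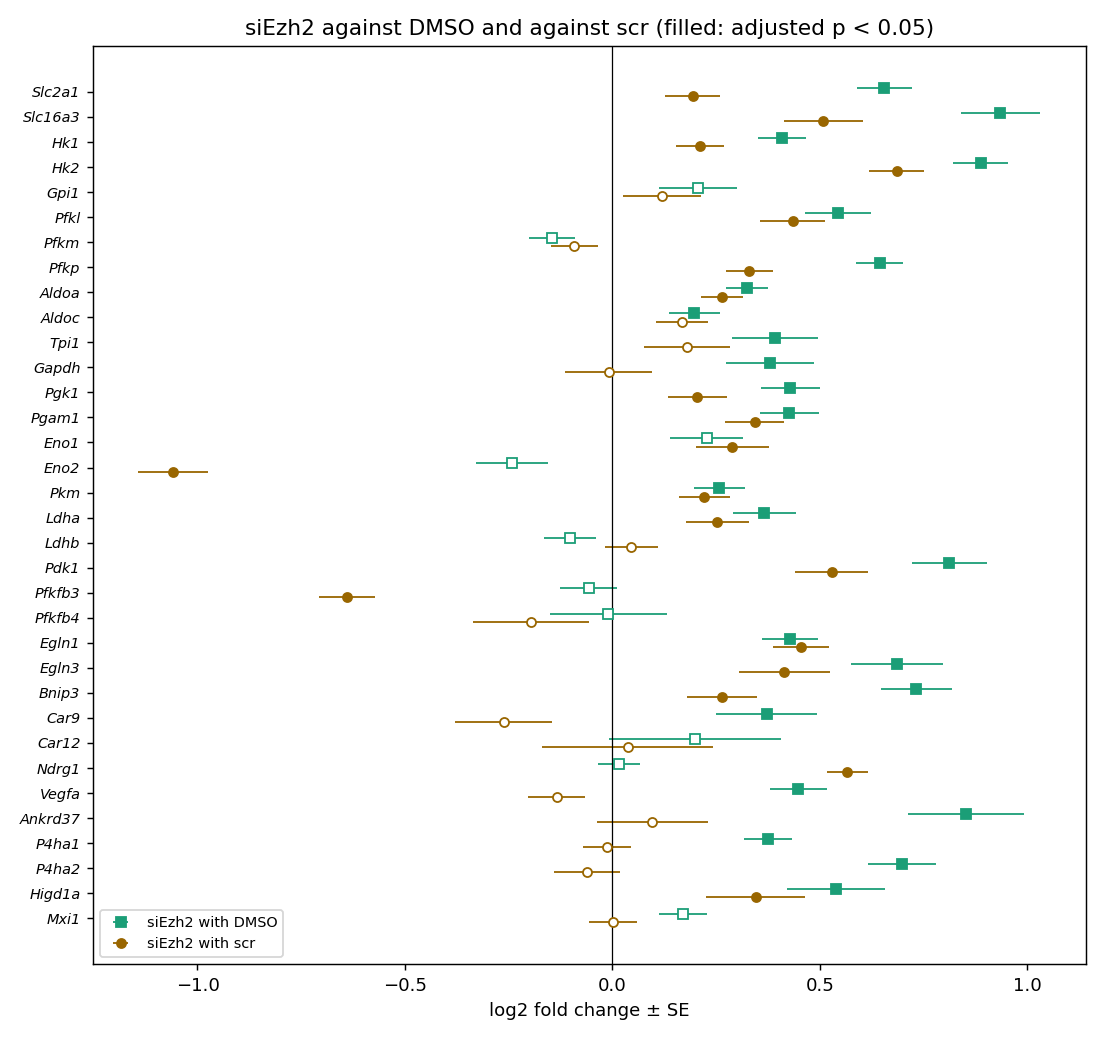
Log2 fold change ± SE of the 34 genes in siEzh2 cells with DMSO as the control (squares) and with scr as the control (circles), filled where the adjusted p was under 0.05. Hk2, Pdk1 and Slc16a3 were higher against both controls, while Ndrg1, Pfkfb3 and Eno2 were called against scr and lay between −0.24 and 0.02 against DMSO.

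The inhibitor and the knockdown were then set side by side, each against its own control. The siEzh2 effect exceeded the GSK126 effect in 3 genes and fell below it in 5, where 20.7% of all genes were called for this difference (10.1% higher and 10.5% lower). The 3 were Ndrg1 (0.84 ± 0.07, adjusted p = 4.21e-08), Hk2 (0.38 ± 0.09, adjusted p = 0.00655) and Aldoc (0.37 ± 0.09, adjusted p = 0.00501). The 5 were Eno2 (−1.06 ± 0.12, adjusted p = 1.77e-06), Pfkfb3 (−0.95 ± 0.09, adjusted p = 3.96e-07), P4ha2 (−0.41 ± 0.11, adjusted p = 0.0149), Vegfa (−0.35 ± 0.10, adjusted p = 0.0135) and Pfkm (−0.25 ± 0.08, adjusted p = 0.0303). The direction for P4ha2 and Vegfa depended on scr as the control: with both treatments set against DMSO, P4ha2 stood at 0.70 with siEzh2 and 0.35 with GSK126, and Vegfa at 0.45 with siEzh2 and 0.21 with GSK126, the opposite order. Ndrg1, set against DMSO in the same way, stood at 0.02 with siEzh2 and −0.27 with GSK126. The gaps of Pfkfb3 and Eno2 also narrowed, with the order kept. Pfkfb3 stood at −0.06 with siEzh2 and 0.31 with GSK126. Eno2 stood at −0.24 with siEzh2, and its level was 9.06 CPM with GSK126, against 9.03 CPM with DMSO. For Pdk1 the difference was −0.02 ± 0.13 and for Slc2a1 0.01 ± 0.09; the other 26 genes did not pass the test, which does not show that their effects were equal.

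Across the 34 genes the siEzh2 and GSK126 effects had a Pearson correlation of 0.14 and a Spearman correlation of 0.18, with 19 genes positive and 2 negative in both. The siEzh2 and DZNep effects had 0.44 and 0.32, with 21 positive and 5 negative in both. These are descriptions over genes, which are not independent replicates, and the scr and DMSO groups behind them differed as given above.

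**Figure D5:**
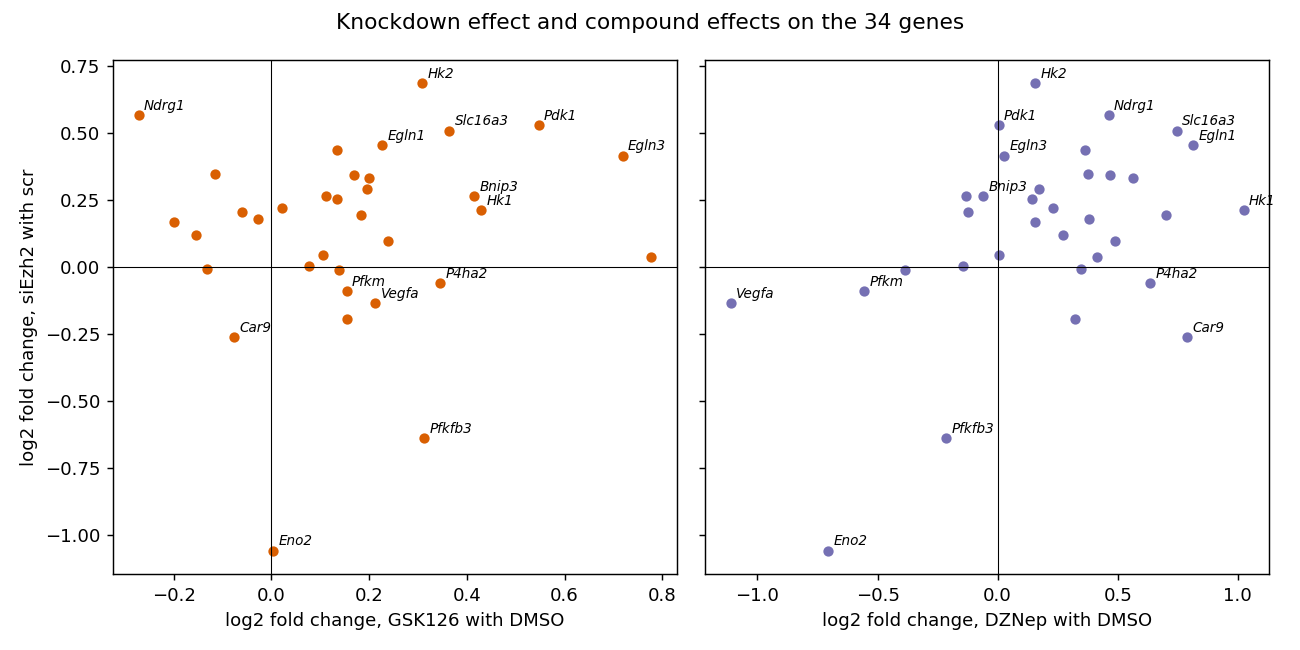
Log2 fold change of the 34 genes with siEzh2 relative to scr on the vertical axis and, on the horizontal axis, with GSK126 (left panel) and DZNep (right panel) relative to DMSO, 1 point a gene. Ndrg1 and Pfkfb3 lie in opposite quadrants of the left panel, and Vegfa (−1.11) and Hk1 (1.02) mark the left and right ends of the right panel.

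DZNep and siEzh2 differed in 18 of the 34 genes, with the DZNep effect higher in 9 and lower in 9, where 51.1% of all genes were called (25.3% higher and 25.8% lower). Car9 (1.05 ± 0.17), Hk1 (0.81 ± 0.08) and P4ha2 (0.70 ± 0.11) were the most in favour of DZNep, and Vegfa (−0.98 ± 0.10), Hk2 (−0.53 ± 0.09) and Pdk1 (−0.52 ± 0.13) the most in favour of siEzh2, all with adjusted p of 0.00237 or lower. With both set against DMSO, P4ha2 stood at 0.63 with DZNep and 0.70 with siEzh2, and Car9 at 0.79 with DZNep and 0.37 with siEzh2, so that the order of P4ha2 turned and the gap of Car9 narrowed. The difference for Ndrg1, called higher in both, was −0.10 ± 0.07 (adjusted p = 0.232).

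The compounds could be compared directly, at the same dose and in the same arm. With DZNep, 16 genes were higher and 10 lower than with GSK126, where 64.6% of all genes were called (32.9% higher and 31.7% lower). Vegfa showed the largest difference (−1.32 ± 0.07, adjusted p = 3.05e-12), followed on the lower side by Pfkm, Eno2, Egln3, Pdk1, Pfkfb3, P4ha1 and Bnip3, between −0.71 and −0.48. Car9 (0.87 ± 0.12), Ndrg1 (0.73 ± 0.05), Hk1 (0.60 ± 0.06) and Egln1 (0.59 ± 0.07) led the higher side. Ldha (0.01, adjusted p = 0.941), Eno1 (−0.03) and Pgk1 (−0.06) were not called.

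Read across the 3 main comparisons, Hk1, Hk2, Pfkp, Slc16a3 and Egln1 rose in all 3. Only Hk1 among them kept every call whichever library was left out. Hk2 lost its call with DZNep in some such fits, and Pfkp, Slc16a3 and Egln1 lost theirs with GSK126. Both compounds were set against the same DMSO libraries, and the share of all genes that rose in all 3 was not counted. Pdk1, Egln3 and Bnip3 rose with GSK126 and siEzh2 and not with DZNep. Slc2a1, Pfkl, Pgam1, Pkm and Higd1a rose with DZNep and siEzh2, and Aldoa, Pfkfb3, Vegfa, Ndrg1 and Aldoc were called in opposite directions in at least 1 pair of comparisons. Ldhb was called in none with all libraries in the fit. Calls of Egln3, Bnip3, Slc2a1, Higd1a, Aldoa, Pfkfb3, Vegfa and Aldoc were also lost in some fits that left out 1 library.

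Genes that act around these pathways were counted from further lists. The lists were chosen with earlier results of these data known, so their shares beside all genes are descriptions and not tests. Among 15 HIF subunits and regulators, 2 rose and 2 fell with GSK126, 3 rose and 4 fell with DZNep, and 2 rose and 3 fell with siEzh2. The shares called were 26.7%, 46.7% and 33.3%, against 12.7%, 62.3% and 26.1% of all genes in the same comparisons. Arnt2, a partner subunit of the HIF factors, stood at 24 ± 1.16 CPM with GSK126 and 3.76 ± 0.201 CPM with DZNep, against 17.9 ± 0.422 CPM with DMSO, log2 fold changes of 0.42 ± 0.06 and −2.26 ± 0.08 (adjusted p = 0.000165 and 4.44e-15). In siEzh2 cells it stood at 15.4 ± 1.15 CPM, against 26.1 ± 0.798 CPM in scr cells (−0.76 ± 0.07, adjusted p = 3.15e-08; SD, n = 3 each). The scr level of Arnt2 lay above the 17.9 CPM of DMSO cells, to which the siEzh2 level was nearer, so the size of this fall depended on the control. The more abundant partner Arnt differed by −0.07, 0.28 and 0.19 in the 3 comparisons and was called in the last 2. Epas1, which encodes HIF-2α, rose with siEzh2 (0.46 ± 0.06, adjusted p = 7.38e-06), and Hif1an and Cul2 changed with DZNep by 0.34 and −0.39.

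Of 20 tested further HIF target genes, out of 23 listed, 11 rose and 3 fell with GSK126, 11 rose and 4 fell with DZNep, and 12 rose and 2 fell with siEzh2. The shares called were 70%, 75% and 70%, against 12.7%, 62.3% and 26.1% of all genes, so that with DZNep the share was near the background. Ak4, a mitochondrial adenylate kinase, rose with GSK126 (0.59 ± 0.08, adjusted p = 1.79e-05) and with siEzh2 (0.63 ± 0.07, adjusted p = 2.23e-06). Pgf, the placental growth factor, fell in both (−0.58 and −0.88). Plod2, a collagen lysyl hydroxylase, rose with GSK126 by 0.36, and Bhlhe40 with siEzh2 by 0.49. With DZNep the muscle glycogen synthase gene Gys1 rose by 0.73 ± 0.06 and the endoplasmic reticulum oxidase gene Ero1l fell by 0.65, a log2 fold change of −0.65 ± 0.07.

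Of 19 tested further glycolytic isoenzymes and regulators, out of 26 listed, 2 rose with GSK126 (Slc16a1 by 0.26 and Pdk3 by 0.18), 9 rose and 4 fell with DZNep, and 4 rose and 5 fell with siEzh2. The shares called were 10.5%, 68.4% and 47.4%, against 12.7%, 62.3% and 26.1% of all genes, and the first 2 were near the background. The muscle enolase Eno3 fell with DZNep (−0.95 ± 0.12) and with siEzh2, to 7.6 ± 0.527 CPM, against 15.2 ± 1.54 CPM in scr cells (SD, n = 3 each), and Pfkfb2 rose with DZNep (0.72 ± 0.07). Pdk3 lost its call with GSK126 in 4 fits that left out a library.

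In the pentose phosphate pathway, which draws on glucose 6-phosphate to make NADPH and ribose, 1 of 8 genes rose and 1 fell with GSK126, 5 rose and 3 fell with DZNep, and 1 rose and 2 fell with siEzh2. With 8 genes these are few, and 12.7%, 62.3% and 26.1% of all genes were called in the same comparisons. H6pd, the enzyme of the endoplasmic reticulum, rose with GSK126 (0.39 ± 0.06) and fell with DZNep (−0.90 ± 0.06), while Pgd rose with DZNep (0.71 ± 0.05). G6pdx, which catalyses the first cytosolic step, fell with siEzh2, to 144 ± 10.3 CPM, against 221 ± 9.26 CPM in scr cells (−0.61 ± 0.05, adjusted p = 4.83e-08). Of 3 tested gluconeogenic genes, Pcx rose with GSK126 (0.43 ± 0.08) and DZNep (1.10 ± 0.07), and Pck2, the mitochondrial form of phosphoenolpyruvate carboxykinase, stood at 25.7 ± 1.79 CPM with DZNep, against 73.5 ± 4.85 CPM with DMSO (−1.52 ± 0.06, adjusted p = 2.71e-14). Against DMSO, siEzh2 cells kept neither the Eno3 call (adjusted p = 0.0577) nor that of Bpgm (−0.08), which had risen by 0.33 against scr.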

How the data were processed

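The authors deposited raw counts of reads for each gene, without normalization. Per the submitters' processing notes, STAR, featureCounts and GRCm38 were used; the sources used here give neither versions nor the annotation and strand setting. Of 46078 identifiers, 45229 matched GENCODE M21, which gave symbols, coordinates and exon lengths.

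Counts were tested with edgeR 4.0.16 (quasi-likelihood, robust) in R 4.3.3, fitted jointly to all 15 libraries by group, after TMM scaling and the edgeR low-count filter. Adjusted p in the fit of all 15 libraries is Benjamini-Hochberg over 15152 genes, and genes were called under 0.05. Fits with fewer libraries applied the filter anew, and those and the fit without a filter adjusted over the genes they kept. Fold changes are log2 ± standard error. Libraries of a group varied by 6.4% (square root of the common dispersion, 0.00409). One count was worth 0.0154 to 0.0306 CPM. Replicates differed by more than sampling noise (chi-square per degree of freedom 5.96 to 38.8), so each library counted as 1.

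Values in every library are given for the 4 largest rises and falls per main comparison among called genes of at least 2 CPM with non-overlapping groups, and for genes called in opposite directions. For the largest rises and falls, absence of overlap was thus a condition and not a further result. The share of all genes without overlap was not counted. From each further list the genes with the smallest p are named; Arnt, as the partner of the HIF factors, was added after its values were seen. The genes and lists were chosen with earlier results of these data known. Same-numbered libraries did not deviate together in every pair, so no replicate block was used. Alternatives were RLE scaling, library totals, no filter, DESeq2 1.42.0, compared groups only, a replicate block, leaving out each library, and DMSO as the control of siEzh2.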

Additional observations from a re-analysis of the deposited data

How the results depend on the processing

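The counts of the 34 genes called moved by less than 1.5 times under RLE scaling, library totals, no low-count filter, DESeq2 and a fit of the compared groups only. Single calls were lost in 1 or more of these settings or with the replicate block. With GSK126 these were 4 of 14 (Aldoc, Pfkp, Slc16a3 and Vegfa). With DZNep they were 6 of 26 (Aldoa, Aldoc, Gpi1, Hk2, Mxi1 and Pfkfb4), Pfkfb4 in 5 settings, DESeq2 included. With siEzh2 they were 4 of 20 (Higd1a, Ldha, Pgk1 and Slc2a1), all under library totals. Leaving out 1 library at a time gave 9 to 18 genes with GSK126 (14 with all libraries; 9 without GSK126 replicate 3), 19 to 24 with DZNep (26), 14 to 20 with siEzh2 (20), 13 to 21 for scr with DMSO (18), 25 to 26 for DZNep with GSK126 (26), 6 to 11 for the siEzh2 effect minus the GSK126 effect (8) and 14 to 21 for the DZNep effect minus the siEzh2 effect (18). The numbers in the library labels, whose meaning is not stated, place GSK126 replicate 1 near the siRNA libraries and apart from the other compound libraries. The replicate numbers were not shown to pair the libraries, since deviations of same-numbered libraries correlated between −0.176 and 0.156, and with the replicate block 13 genes were called with GSK126, 24 with DZNep, 21 with siEzh2, 18 for scr with DMSO, 26 for DZNep with GSK126, 9 for the siEzh2 effect minus the GSK126 effect and 19 for the DZNep effect minus the siEzh2 effect.

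With DMSO as the control of siEzh2, chosen after seeing the data, 2148 genes were called over the whole table, against 3953 with scr, and values changed sign to −0.083 for Bpgm, 0.37 for Car9, 0.38 for Gapdh, 0.38 for P4ha1, 0.70 for P4ha2, −0.69 for Pdgfra and 0.45 for Vegfa; the cause was not tested. Depth limits Car12, Pfkfb4, Egln3, Car9 and Ankrd37 most, at a few CPM or less.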
